A study of Rattus norvegicus with 2 samples.

Results

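Genes of the mitogen-activated protein (MAP) kinase cascades were followed in cultured rat cortical neurons in which PIWIL1, an RNA-binding protein of the PIWI family, was targeted by RNA interference. The 9 genes were chosen by name (Mapk3, Mapk8, Mapk9, Mapk10, Mapk14, Map2k1, Map2k2, Map2k4 and Map3k11), and 8 of them had a value among the 9894 genes listed in at least 1 library. No value was found for Mapk8 (JNK1), by identifier or by description, and it was not analysed here. Somatosensory cortex was taken from E16 Sprague-Dawley embryos, and the dissociated cells received either a control plasmid or an RNAi plasmid by electroporation. Cells of both groups then grew for 48 h in Neurobasal with 2% B27 and 10% fetal bovine serum before total RNA was extracted with Trizol. Each group had 1 library, so there was no replicate error, and every test below compared the 2 libraries and not the 2 conditions. No sorting of plasmid-bearing cells is described for these cultures, and which of the study's PIWIL1 siRNAs was used for this library is not stated. PIWIL1 was not found by symbol in either table, so its level was not checked here.

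MAP kinase cascades pass a signal through protein kinases arranged in tiers. A MAP kinase kinase kinase (MAP3K) phosphorylates a MAP kinase kinase (MAP2K), which in turn phosphorylates a MAP kinase on threonine and tyrosine. The ERK arm responds mainly to growth factors through Ras and Raf, while the JNK and p38 arms respond mainly to stress and cytokines. In developing cortex, JNKs phosphorylate microtubule-associated proteins and take part in the migration of newborn neurons.

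Digital gene expression sequences 1 end of each transcript at CATG sites, so a gene is represented by 21-base tags and the copies of each tag are counted. Sites are numbered from the 3′ end of the transcript, and site 1 is the last CATG. The tags below carried most of the copies of the 8 genes, and their last 2 bases are in capitals because across all tags the RNAi to control ratio moved with those bases. The first 13 are all the tags of these genes whose copies sum to 20 or more, and the last 3 are the most copied tags of the sparsely counted genes.
Map3k11 site 1: catgcctacaaactgtaggTC
Map2k1 site 1: catgatagctggggcttcaGT
Map2k1 site 2: catggtattttatttttgcTT
Map2k1 site 3: catgctttgctgctactgaAA
Map2k1 site 7: catgtgccaaatcgtacttGT
Map2k2 site 1: catgccttcatcaaacgctCT
Map2k2 site 2: catggccatctttgagctgCT
Mapk3 site 1: catgtaacgcccttgctgcTT
Mapk3 site 4: catgcttaactccaagggcTA
Mapk3 site 8: catggtcagctcagcatatGA
Mapk14 site 1: catggtgcgatgctgccgcCA
Mapk14 site 2: catgctgtgttaggactgtGC
Mapk14 site 3: catgtggccatgctgtgttAG
Map2k4 site 1: catgctatgtttgtaaaatCC
Mapk9 site 5: catgtagcactttgggaatCA
Mapk10 site 5: catgggagaaatggttcgtCA

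Of the 8 genes with a value, Mapk14 (p38α) and Map3k11 (mixed lineage kinase 3) were higher in the RNAi library, by 1.52-fold and 2.10-fold. None was called lower. Map2k1 and Map2k2, the kinases directly above ERK, had fewer copies in the RNAi library but did not pass both limits of the test, and Mapk3 (ERK1) had more copies without reaching the fold limit. Mapk9, Mapk10 and Map2k4 were counted too sparsely for any but a large difference to be seen. A gene was called when Fisher's exact test on its copies against all other copies on genes gave a Benjamini-Hochberg false discovery rate (FDR) of at most 0.05 and its log2 ratio of RNAi over control was at least 0.58 in size. Among all 9894 genes that rule called 591 lower (5.97%) and 293 higher (2.96%), against 0 lower and 2 higher of the 8 cascade genes.

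With only 2 calls among 8 genes, the counts give no pattern for the cascade as a whole. The median log2 ratio of the 8 genes was 0.00, beside -0.09 over the 8899 genes listed in both libraries, and 4 of the 8 had a ratio above 0 and 4 below. With trimmed mean of M values (TMM) scaling the whole table shifted by 0.09 on the log2 scale and the calls became 459 lower and 398 higher (4.64% and 4.02%), so that 46.4% of all calls were higher instead of 33.1%. Both calls among the cascade genes and the direction of all 8 were the same with TMM and with DESeq2 size factors. Gene lists that the study drew from these same libraries include Mapk14 and Map3k11, so their ratios here are not independent evidence of a direction.

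**Figure D1:**
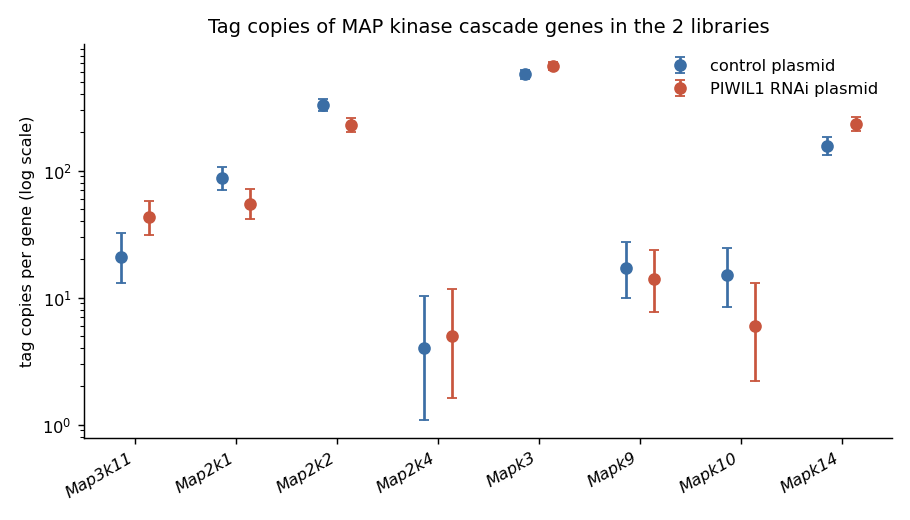
Tag copies of the 8 genes in the control and the RNAi library, on a logarithmic axis, with exact 95% Poisson intervals that cover counting error only. The intervals of Mapk14 (157 control and 232 RNAi copies) and of Map2k2 (327 and 228 copies) are separate between libraries. Those of Map3k11 (21 and 43 copies) overlap slightly, between 31.1 and 32.1, and those of Mapk3 and Map2k1 overlap slightly as well. The intervals of Mapk9, Mapk10 and Map2k4 are wide and overlap between libraries.

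Map3k11 (listed under NM_001013150) is a MAP3K that activates the JNK and p38 arms through the MAP2Ks below it. It had 21 copies in the control library and 43 in the RNAi library, or 6.20 and 13.02 in the deposited TPM, which is scaled to clean tags and has no transcript length in it. Its log2 ratio was 1.07, with an exact 95% interval from 0.29 to 1.90, and the Fisher's exact FDR was 0.0269. Nearly all of this came from 1 tag: the site 1 tag, with 93.8% of the copies, went from 21 to 39 copies, while the tags at sites 3 and 5 had 2 copies each and were listed in the RNAi library only. The call was near its limit, since 41 RNAi copies were needed against the 43 counted. It was lost when a tag missing from 1 library was given 1 copy there (23 and 43 copies, Fisher's exact FDR 0.0601) and when copies were corrected for the ratio of tags with the same end (log2 0.97, FDR 0.0790).

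Below it, the MAP2Ks split by arm. Map2k1 and Map2k2 (MEK1 and MEK2, NM_031643 and NM_133283) phosphorylate the ERKs, and Map2k4 (MKK4, NM_001030023) phosphorylates JNKs and p38. Map2k2 had 327 copies in the control and 228 in the RNAi library, a log2 ratio of -0.48 (95% interval -0.73 to -0.24). Its Fisher's exact FDR was 0.00244, so the copies differed between the libraries beyond counting error, but the ratio was short of the fold limit, for which 213 RNAi copies or fewer were needed. Its better counted tags, at sites 1 and 2, both had fewer copies in the RNAi library. The site 1 tag, which held 77.8% of the copies, went from 250 to 182, and the site 2 tag from 33 to 19. Both tags end in CT, and tags with that end had a median log2 ratio of -0.24 over all genes. Once corrected for tag ends, the log2 ratio of Map2k2 was -0.34 (95% interval -0.59 to -0.10, Fisher's exact FDR 0.0821).

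Map2k1 showed the opposite case, with a ratio past the fold limit and an FDR that missed. It had 87 control and 55 RNAi copies, a log2 ratio of -0.63 (95% interval -1.14 to -0.12) with a Fisher's exact FDR of 0.0917, and 52 RNAi copies or fewer would have been called. Its 4 better counted tags did not move as 1. The site 2 tag went from 33 to 21 copies, the site 1 tag from 14 to 12, and the site 3 tag from 13 to 14. The site 7 tag stood apart from these, with 18 copies in the control and 2 in the RNAi library. That tag ends in GT, an end whose tags had a median log2 ratio of -0.67, and so does the site 1 tag, whose own log2 ratio was -0.19. Without the site 7 tag Map2k1 had 69 and 53 copies and a log2 ratio of -0.34, with an interval from -0.89 to 0.19 that includes 0. With copies of all its tags corrected for their ends, Map2k1 was at -0.42, with an interval from -0.94 to 0.08 and a Fisher's exact FDR of 0.367.

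Map2k4 had 4 control and 5 RNAi copies, and its log2 ratio of 0.36 had an interval from -1.86 to 2.69. At this depth even 0 copies in the RNAi library would not have been called lower, and 16 would have been needed for a call in the other direction. Its site 1 tag had 4 and 3 copies and its site 2 tag was listed in the RNAi library only, with 2.

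At the level of the MAP kinases themselves, the ERK arm was represented by Mapk3 (NM_017347), which phosphorylates many cytoplasmic and nuclear substrates. It had 574 control and 664 RNAi copies, or 169 and 201 TPM, the largest counts among the 8 genes. The log2 ratio was 0.25 (95% interval 0.08 to 0.41), and the Fisher's exact FDR was 0.00892. The libraries thus differed beyond counting error by 1.19-fold, which is well inside the fold limit (837 RNAi copies were needed). The site 1 tag held 91.2% of its copies, 531 and 598. The site 4 tag had 16 and 37 copies, a log2 ratio of 1.25, and the site 8 tag had 10 in each library. The site 1 tag ends in TT, an end with a median log2 ratio of -0.21, and once corrected for tag ends, the log2 ratio of Mapk3 was 0.40 (95% interval 0.24 to 0.57), still not called.

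The JNKs were the least well measured kinases of that tier. Mapk9 (JNK2, NM_017322), which is expressed in most tissues, had 17 control and 14 RNAi copies, with a log2 ratio of -0.24 (95% interval -1.38 to 0.86) and a Fisher's exact FDR of 0.889. Between 5 and 35 RNAi copies would have left it uncalled. Its most copied tag, at site 5, had 8 and 4 copies, and without it the ratio changed sign, to a log2 of 0.19 (9 and 10 copies).

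Mapk10 (JNK3, NM_012806), the JNK found mainly in the nervous system, had 15 control and 6 RNAi copies. Its log2 ratio of -1.29 was the largest in size among the 8 genes, but the interval ran from -2.94 to 0.16 and Fisher's exact FDR was 0.255. A count of 3 or fewer was needed for a call. The ratio rested on single tags: it was -2.55 on the log2 scale without the site 5 tag (12 and 2 copies), -0.55 without the site 6 tag (9 and 6) and -0.87 with 1 copy put back for missing tags. The 6 copies of its site 6 tag were in the control library only, and no other tag of the 8 genes that was listed in 1 library only had more. For JNK transcripts, a difference between the libraries of the size seen for Mapk14 was not detectable at this depth.

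Mapk14 (NM_031020), the widely expressed p38 kinase, was the better supported of the 2 calls in copies. It had 157 control and 232 RNAi copies, or 46.4 and 70.2 TPM, with a log2 ratio of 0.60 (95% interval 0.30 to 0.90) and a Fisher's exact FDR of 3.46e-04. Its 3 well counted tags gave nearly the same ratio. The site 1 tag went from 70 to 100 copies (log2 0.55), the site 2 tag from 48 to 72 (0.62) and the site 3 tag from 28 to 41 (0.59). The site 3 and site 2 tags overlap by 13 bases on the transcript, and tags of 1 gene share their RNA and library, so they are not replicates. Leaving out any 1 tag gave log2 ratios from 0.56 to 0.64.

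The difference of Mapk14 was clear of counting error but stood just past the fold limit, since 229 RNAi copies were needed and 232 were counted. With 1 copy put back for missing tags in this way, 4.92% of all genes were called lower and 2.44% higher, but none of the 8. The log2 ratio of Mapk14 was then 0.575 (161 and 234 copies), short of the fold limit alone, with a Fisher's exact FDR of 6.11e-04. The 3 tags end in CA, GC and AG, ends with median log2 ratios of 0.16, 0.15 and 0.11. Once corrected for tag ends, the log2 ratio was 0.42 (95% interval 0.12 to 0.72, Fisher's exact FDR 0.0302), and no cascade gene was called in either direction (all genes, 3.69% lower and 1.89% higher). When cultures were assumed to vary with a coefficient of 0.1, edgeR's exact test also called none of the 8 (all genes, 1.72% lower and 1.15% higher), with an FDR of 0.208 for Mapk14 and 0.171 for Map3k11.

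**Figure D2:**
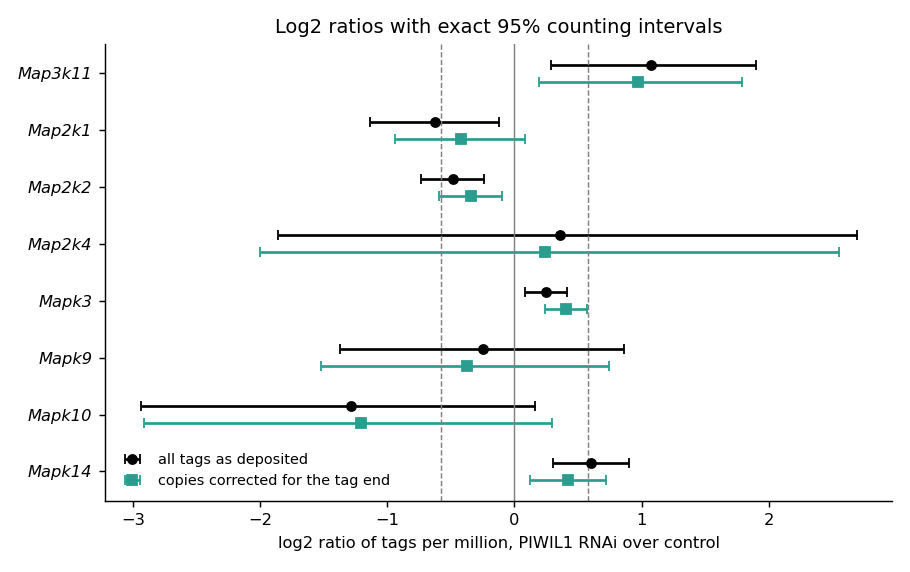
Log2 ratio of RNAi over control for the 8 genes with exact 95% intervals for counting error, from all copies and after correction for the tag end, with dashed lines at the fold limit of 0.58 in either direction. Mapk14 moves from 0.60 to 0.42 and Map3k11 from 1.07 to 0.97 with the correction, while the intervals of Map2k4, Mapk9 and Mapk10 include 0.

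Tags that end in 8 or more A were 1.08% of the copies on genes in the control library and 2.72% in the RNAi library. None of the 54 tags of the 8 genes had such an end, so leaving those tags out changed no copies of these genes and raised each log2 ratio by 0.01 through the smaller totals. Mapk14 was then at 0.61, Map3k11 at 1.08, Mapk3 at 0.26, Map2k4 at 0.37, Mapk9 at -0.23, Map2k2 at -0.47, Map2k1 at -0.61 and Mapk10 at -1.27. Both genes were still called (all genes, 5.52% lower and 2.18% higher). Of the 54 tags, 28 were listed in both libraries, 15 in the control only and 11 in the RNAi library only. The most copied tag was at site 1 for 5 of the 8 genes, of which 3 had under 50 copies. Of the 5 with 50 copies or more, all but Map2k1 (site 2) had it at site 1. Over the 6010 genes of 50 copies or more, that share was 74.3%.

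**Figure D3:**
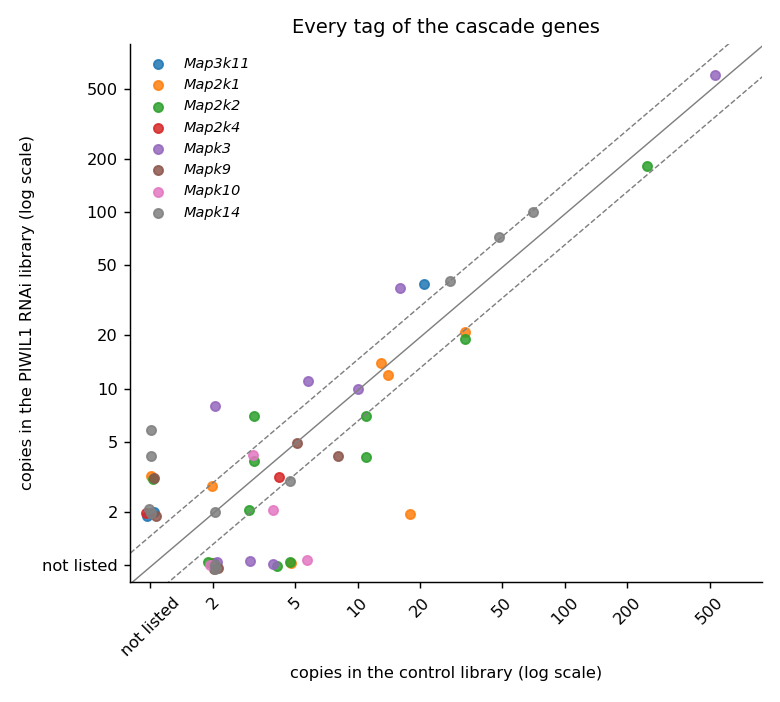
Copies of each of the 54 tags in the control library (x) and the RNAi library (y), both axes logarithmic, with tags not listed in a library drawn at 1 copy and points under 7 copies moved slightly so that they do not cover each other. The solid line marks equal values per clean tag and the dashed lines the fold limit of 0.58 on the log2 scale. The 3 well counted Mapk14 tags and the main Map3k11 tag lie above the line of equal values, the site 1 and site 2 tags of Map2k2 lie below it, and the Map2k1 tag with 18 and 2 copies lies farthest below.

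Ratios between genes of the same library do not depend on how the libraries were scaled, and 7 pairs along the arms were compared by the interval of their difference in log2 ratio. In the ERK arm, Mapk3 was set against each of the MAP2Ks above it. Mapk3 had 6.60 copies per copy of Map2k1 in the control and 12.1 in the RNAi library, a difference of 0.87 on the log2 scale (95% interval 0.34 to 1.41). Against Map2k2 the same quantity went from 1.76 to 2.91 (difference 0.73, interval 0.43 to 1.03). That difference was 0.75 with the correction for tag ends and 1.36 without the most copied tags. Both pairs set a gene with more RNAi copies against one with fewer, so their intervals add nothing to the single ratios. Without its site 7 tag, Map2k1 alone had a log2 ratio of -0.34 (95% interval -0.89 to 0.19). Map2k1 and Map2k2 were not told apart from each other, with a difference of -0.14 and an interval from -0.72 to 0.43 that allows either to be the lower, and a difference of 0.08 without the most copied tags.

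Across arms, Mapk14 per copy of Map2k2 went from 0.480 to 1.02, a difference of 1.08 (95% interval 0.69 to 1.48). With the correction for tag ends that difference was 0.76. This pair sets a gene called higher against one with fewer RNAi copies, so its interval adds nothing to the single ratios. The log2 ratio of Mapk14 exceeded that of Mapk3 by 0.35, with an interval from 0.01 to 0.70 that barely left out 0. It did so by only 0.01 once copies were corrected for tag ends, and the difference was -0.02 without the most copied tag of each gene. Map3k11 and Mapk14, the genes called higher, differed by 0.47 with an interval from -0.38 to 1.35, and Mapk9 and Mapk10 by 1.04 with an interval from -0.86 to 3.03 (2.74 without the most copied tags). The pairs were not among the planned tests. Their intervals were not adjusted over the 7 pairs and cover counting error only. The values with other tags or corrected copies were added after the data had been seen.

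The rest of the cascade was taken from lists of 108 further genes, of which 81 were found, on 82 identifiers. Of these identifiers 7 were called lower (8.54%, against 5.97% of all genes), 4 higher (4.88%, against 2.96%) and 71 were not called. The median log2 ratio of the 77 listed in both libraries was -0.10, close to that of all genes. After correction for the tag end 3 were called lower (Mapk6, Map4k4 and Mapt) and 4 higher (the same 4 identifiers). The lists below had 2 to 19 identifiers each, so 1 call is a large share of a short list.

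Among the 6 other MAP kinases found, only Mapk6 (ERK3, an atypical kinase) was called. It had 595 control and 255 RNAi copies, a log2 ratio of -1.19 (95% interval -1.40 to -0.97, Fisher's exact FDR 6.06e-27), and its 5 tags of 20 or more copies all had a ratio below 0. Mapk7 (ERK5) had 99 and 124 copies, a log2 ratio of 0.36 that was not called. Of the MAP2Ks for p38, Map2k3 had 167 and 123 copies (log2 -0.41, FDR 0.130) and Map2k6 had 38 and 42 (log2 0.18, FDR 0.785), neither called by Fisher's exact test.

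In the upper tiers, 1 of 19 identifiers of MAP3Ks and MAP4Ks was called lower (5.26%, against 5.97% of all genes) and 2 higher (10.5%, against 2.96%). Map4k4, a kinase upstream of JNK, fell from 916 to 416 copies, a log2 ratio of -1.10 (95% interval -1.27 to -0.93, Fisher's exact FDR 8.64e-37), and its 5 tags of 20 or more copies all had a ratio below 0. Its relative Map4k5 rose from 7 to 21 copies (log2 1.62, Fisher's exact FDR 0.0449), a call that was lost with 1 copy put back (FDR 0.135). Araf, a Raf kinase, was listed under 2 identifiers that went different ways. Under NM_022532 it had 76 and 119 copies and was called higher (log2 0.68). Under NM_001033663 it had 452 and 375 and was not called (log2 -0.23), so its direction is uncertain. With copies summed per symbol Araf was not called higher, and the higher calls among the further cascade genes went from 4 to 3.

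Among Ras proteins and their regulators, 1 of 11 was called in each direction (9.09% each, against 5.97% lower and 2.96% higher of all genes). Rasgrf1, a calcium-regulated exchange factor for Ras, rose from 21 to 46 copies (log2 1.17, Fisher's exact FDR 0.0117). Rasa1, which turns Ras off, had 8 control copies and was not listed in the RNAi library. Against a floor of 3 copies it was 2.60-fold lower, a value that leaves out counting error. The exact interval of its log2 ratio reached up to -0.74, which is a smaller fall. Its lower call (Fisher's exact FDR 0.0480) was lost with 1 copy put back (FDR 0.554). Rap1a had 79 and 64 copies (log2 -0.27) and was not called. Of 10 scaffolds, Lamtor3, which holds Map2k1 and Mapk3 together, was called lower with 183 and 118 copies (log2 -0.60, Fisher's exact FDR 0.00761), but its log2 ratio was -0.10 after correction for the tag end. Mapk8ip3, a JNK scaffold, had 61 and 59 copies and the highest ratio of the scaffolds with at least 50 copies (log2 -0.01).

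Of 13 phosphatases of MAP kinases, Dusp5, a nuclear phosphatase of ERK, rose from 16 to 55 copies (log2 1.82, 95% interval 0.99 to 2.72, Fisher's exact FDR 2.12e-05), and once corrected for tag ends, its log2 ratio was 1.38 and it was still called. Dusp10, which acts on JNK and p38, had 35 and 18 copies (log2 -0.92, Fisher's exact FDR 0.155) and was not called.

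Downstream, 1 of 9 substrate kinases was called lower (11.1%, against 5.97% of all genes) and none higher. Rps6ka5 (MSK1), which ERK and p38 activate, fell from 34 to 13 copies (log2 -1.35, Fisher's exact FDR 0.0244), and this call was lost after correction for the tag end (log2 -0.97, FDR 0.184). Rps6ka2, an ERK-activated kinase, had 132 and 187 copies and a log2 ratio of 0.54 that was short of the fold limit, and the lowest ratio with at least 50 copies was that of Rps6ka4 (log2 -0.07). Of the 12 other substrates, Map1b (3392 and 1758 copies, log2 -0.91) and Mapt (4138 and 2514, log2 -0.68), both microtubule-associated proteins, were called lower, and Map1b was at -0.57 and no longer called after correction for the tag end. Mef2d, a transcription factor and p38 substrate, had 22 and 37 copies and was not called (log2 0.79, Fisher's exact FDR 0.152).

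**Figure D4:**
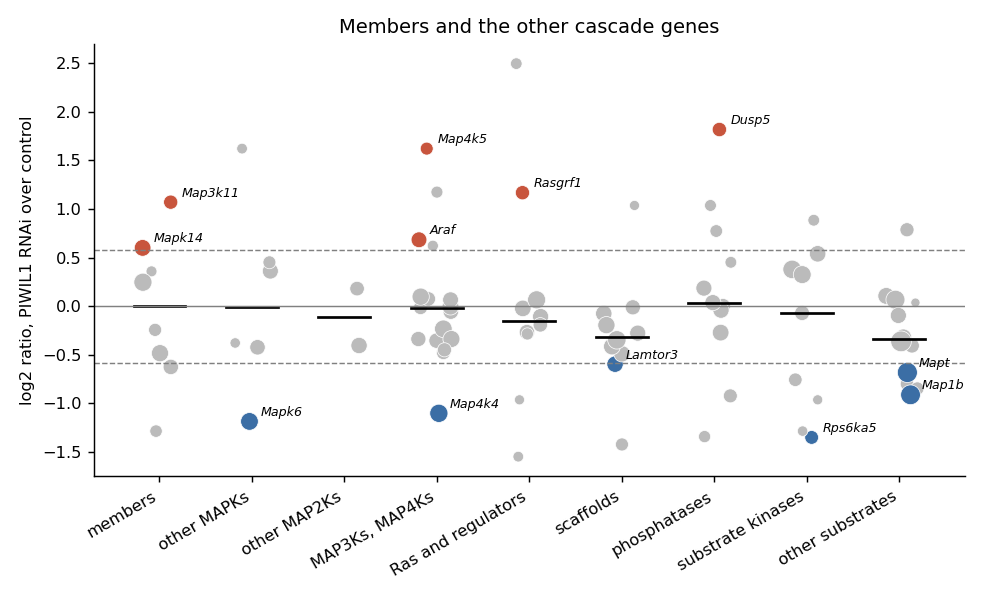
Log2 ratio of RNAi over control for each identifier of the 8 further cascade lists and of the 8 genes described first, with larger points for more copies, blue for genes called lower, red for genes called higher and a black line at each list's median. Dusp5 (1.82) is the highest of the called points and Rps6ka5 (-1.35) the lowest, most points are uncalled, and genes listed in 1 library only, such as Rasa1, have no ratio and are not drawn.

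The libraries were of like depth, with 3386865 clean tags for the control and 3303360 for the RNAi library, of which 57.5% and 56.5% were on genes. A tag needed at least 2 copies to be listed, and a floor of 3 copies equals 0.886 and 0.908 TPM. The intervals cover counting error only, and they and Fisher's exact test treat each copy as an independent molecule. Tags copied by PCR are not independent, so the intervals and FDRs may understate even the counting error, which was not tested. The labelled cell type was checked by markers, and all 12 neuronal markers were found. They summed to 5896 TPM in the control and 4953 in the RNAi library. Of them 3 were called lower (Map2, Mapt and Snap25), or 25% against 5.97% of all genes, and 0 higher. The median log2 ratio of the 11 listed in both libraries was -0.49. Not all fell: Neurod2 went from 168 to 235 TPM, Gap43 from 788 to 1072 and Dcx from 395 to 413. Leaving out the tags with long A ends took the log2 ratio of Gap43 from 0.44 to -0.16. The RNAi sum includes those tags. The Map2 call (24 and 8 copies) was lost with TMM and with 1 copy put back, and that of Snap25 after correction for the tag end (log2 -0.56). The summed level of 7 of 8 radial glia and progenitor markers was 1025 and 1311 TPM. Most of that was Vim, with 790 and 1127 TPM, and the other 6 all had a log2 ratio below 0, so that the median of the list was -0.29. The 5 of 7 astrocyte markers found summed to 182 and 182 TPM. The other lists were low, at 10.3 and 8.78 TPM for 7 of 7 oligodendrocyte lineage markers, 18.3 and 20.9 for 4 of 7 microglial markers, 2.95 and 1.52 for 2 of 8 endothelial and pericyte markers and 19.8 and 24.2 for 2 of 3 erythroid markers. In RNA from a whole culture, fewer cells of a type and less RNA per cell cannot be told apart, and the part of these shifts in the cascade ratios was not tested.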

How the data were processed

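The 2 tables, 1 per library, were analysed. Per the file headers and values they hold tag counts per gene (the tag copies that the authors deposited) and the TPM deposited by the authors, which equals copies scaled to clean tags, with no transcript length. The submitters' processing notes name the build rn4, and the aligner and tag filter are not given in the sources used here. Symbols were matched to 9341 of 9894 RefSeq identifiers (94.4%), 4 of them by description. No genome of that build was used, so no coordinates are given, and the match of tags to transcripts was not checked.

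Copies were compared by Fisher's exact test, two-sided (SciPy 1.17.1), with Benjamini-Hochberg adjustment over 9894 genes, and intervals are Clopper-Pearson (95%). Correction for the tag end divided the RNAi to control ratio of each tag by the median of tags with the same last 2 bases. That median was taken relative to the median of all tags of 20 or more copies, with a pseudocount of 0.5. Runs of 3 or more A had classes of their own. The genes were put in 2 parts, and medians from 1 part were applied to the other. The change was shared equally by the 2 libraries on the log2 scale, so summed copies were not kept exactly, and library totals were rescaled. edgeR 4.0.16 (TMM, exact test with coefficients of variation of 0.1, 0.2 and 0.4) and DESeq2 1.42.0 (size factors) gave alternatives. Fisher's exact test was tried on simulated copies with set fold changes and counting error only. The simulation had no tag-end effect, PCR copies or variation between cultures, so it says nothing of those. With 1 library per group a quasi-likelihood fit has no residual degrees of freedom. From each further cascade list the text names every called gene and the largest fall and rise among genes with at least 50 copies. The 9 genes, the lists and the tests were chosen with earlier results of these data known.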

Additional observations from a re-analysis of the deposited data

How the results depend on the processing

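The 2 cascade genes called higher were both called without tags ending in 8 or more A, with either scaling and with a filter on low counts. Of these 2, 1 was called at a log2 limit of 1 (Map3k11), 1 at an FDR of 0.001 (Mapk14), 1 without the most copied tag of each gene, 0 after correction for the tag end, 0 with 1 copy put back and 0 with an assumed coefficient of variation of 0.1, 0.2 or 0.4. Over 14 alternatives Mapk14 was called in 8 (FDR 4.70e-05 to 1) and Map3k11 in 7 (FDR 0.0185 to 1). The count of cascade genes called lower was 0 in every alternative. For the further cascade genes, the 7 lower calls became 3, 0 and 0 with coefficients of 0.1, 0.2 and 0.4, 3 after correction for the tag end, 4 at a log2 limit of 1 and 4 at an FDR of 0.001, and the 4 higher calls became 1, 0 and 0 with those coefficients, 0 without the most copied tag and 1 at an FDR of 0.001. Over all genes, the 591 lower calls became 170, 2 and 0 with those coefficients, 365 after correction for the tag end, 297 without the most copied tag, 262 at a log2 limit of 1 and 257 at an FDR of 0.001, and the 293 higher calls became 114, 15 and 0, then 187, 111, 146 and 163 in the same order. Mapk9 reversed to a log2 ratio of 0.19 without its most copied tag, which is also the highest value when each tag is left out in turn, an alternative chosen after seeing the data. The cause of these moves was not tested, apart from the smaller number of copies where tags are left out. Without their most copied tag, Map2k4 and Map3k11 had 0 control copies and gave no ratio, and a filter of 10 copies removed Map2k4. Depth limits what can be said of Mapk9, Mapk10 and Map2k4. No paired analysis was possible because each group has 1 library.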

Other observations

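The 21-base tags distinguish sequences that differ at 1 base, and Map2k2 had such a pair at site 4. Counted from 1 at the 5′ end of the tag they differ by T18G.
First tag: catggggctgtcgctggtgGA
Other tag: catggggctgtcgctggggGA
The first had 3 control and 2 RNAi copies and the other had 2 copies in the control library only, which is too few to say whether the ratio differs between them. Mapkapk2, the kinase directly below p38, was named here after its values were seen, and had 452 control and 552 RNAi copies with a log2 ratio of 0.32 and a Fisher's exact FDR of 0.00156, short of the fold limit. Mknk2, which ERK and p38 activate, was also named after its values were seen. It had 751 and 952 copies with a log2 ratio of 0.38 and a Fisher's exact FDR of 2.28e-07, also short of that limit. With an assumed coefficient of variation of 0.1, edgeR's exact test gave an FDR of 0.554 for Mapkapk2 and 0.429 for Mknk2. Both come from the list of 9 substrate kinases, whose median log2 ratio was -0.07.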
